A study of Mus musculus with 3 samples.

Results

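The genes described here are the 6 conventional actin isoforms of the mouse, taken from the deposited tables by their symbols: Actc1, Acta1, Acta2, Actg2, Actb and Actg1. They are 6 of the 54532 genes listed, and all 6 had over 10 counts in the higher library of every comparison. Actin monomers polymerize into filaments, and in striated muscle these become the thin filaments of the sarcomere, along which myosin pulls. Cells choose among nearly identical actins: Actc1 encodes the α-actin of the heart and Acta1 that of skeletal muscle, which the developing heart also makes. Acta2 encodes the α-actin of vascular smooth muscle, best known in injured tissue as the stress fiber actin of myofibroblasts, and Actg2 the γ-actin of visceral smooth muscle. Actb and Actg1 encode the cytoplasmic β- and γ-actins of non-muscle cells.

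RNA-seq compared 3 conditions with 1 library each. MICFs, cardiac fibroblasts taken from the infarcted tissue of adult Myh6-mCherry mice 5 days after myocardial infarction (MI), were cultured for 4 weeks and received no virus. The induced cardiomyocytes (iCMs) came from such MICFs after a 4 week induction, in medium with doxycycline, by Gata4, Mef2c, Tbx5 and Myocd with either Sall4 (GMTMS) or Mesp1 (GMTMM), were sorted for mCherry, and each of the 2 iCM libraries mixed 5 sorted samples. In these mice mCherry is driven by the Myh6 promoter, a cardiomyocyte promoter. The purity of the sort is not measured by these data, and the MICF library was not sorted. The mice were operated on at 8 weeks of age. With 1 library per condition no difference has a replicate check, and no p-value can be given. The intervals below are 95% intervals that cover counting error only.

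The libraries held 11861773 counts for MICFs, 10624118 for GMTMS and 11904484 for GMTMM. Sall4 had 0, 1190 and 1060 counts in MICFs, GMTMS and the library labelled GMTMM, and Mesp1, the factor that gives GMTMM its last letter, had 0 in all 3. Every direction drawn from the third library is therefore that of "the library labelled GMTMM". Each library held markers of several cell types. The 10 macrophage markers summed to 9555 FPKM in MICFs, 19663 in GMTMS and 9351 in the library labelled GMTMM. The 10 fibroblast markers summed to 1901, 516.2 and 3532, and the 10 cardiomyocyte markers to 2.64, 1112 and 409.9. The library labelled cardiac fibroblasts (MICFs) thus carried more FPKM of macrophage than of fibroblast markers, and so did both iCM libraries. Lyz2 alone gave 6135, 11353 and 5495 of the macrophage FPKM. In summed counts the macrophage markers were below the fibroblast markers in MICFs (198967 against 201184) and in the library labelled GMTMM (156333 against 302560). In GMTMS they were above (270540 against 28999). Such sums do not rank the cell types. None of the macrophage or fibroblast markers was at 0 in any library. FPKM is the count scaled by the length of the gene and by an adjusted library size.

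The coding sequences of the 6 genes differ little, so that reads tell the isoforms apart only where the letters differ. All 6 lie on the minus strand of their chromosomes. The first 45 coding bases are shown because the isoforms separate there, at the start of the protein. Capitals mark bases that are not the same in all 6 genes in an alignment of the full coding sequences (GENCODE M21, GRCm38).
Actc1: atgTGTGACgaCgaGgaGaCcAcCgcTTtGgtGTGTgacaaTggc
Acta1: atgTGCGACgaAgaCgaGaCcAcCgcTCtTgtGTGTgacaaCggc
Acta2: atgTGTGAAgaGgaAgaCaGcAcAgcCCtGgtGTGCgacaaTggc
Actg2: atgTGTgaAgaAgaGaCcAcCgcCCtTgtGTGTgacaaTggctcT
Actb: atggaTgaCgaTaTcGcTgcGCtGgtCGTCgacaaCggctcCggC
Actg1: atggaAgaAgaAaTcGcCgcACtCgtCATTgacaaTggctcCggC
The 4 muscle actins open with a tgt or tgc codon after the atg, and Actb and Actg1 lack it. Over 1134 aligned columns, 790 bases (69.7%) were identical in all 6 genes. The closest pair was Actb and Actg1 with 88.7% identity, followed by Actc1 and Acta1 with 86.2%, and the farthest pairs were Actc1 and Acta2 against Actg1, each with 81.5%.

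How far a row can borrow reads from another gene differed between isoforms. Of the 50-base words in the transcript, Actc1 and Actg2 shared 0% with any other gene, Acta2 0.352%, Acta1 2.22%, Actb 14.2% and Actg1 56.7%. At 150 bases, the length of a read, Actg1 still shared 43.5% and the other 5 genes 0%. Actg1 words lay mainly in Gm12715, a row with 181, 78 and 104 counts in MICFs, GMTMS and the library labelled GMTMM, and in Gm8399, with 54, 32 and 55. Those counts are small beside the 7490 to 11753 counts of Actg1 itself, but how reads with several matches were assigned is not given in the sources used here, and the level of Actg1 is uncertain to that extent. The 2 rows that the file names as actin pseudogenes held 1, 2 and 1 counts.

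The actin mRNA of both iCM libraries had a different make-up from that of MICFs. The muscle actins (Actc1, Acta1, Acta2 and Actg2) made up 14.0% of the summed actin FPKM in MICFs, 39.2% in GMTMS and 36.3% in the library labelled GMTMM. The extra muscle actin was mostly striated in GMTMS, where Actc1 and Acta1 together held 22.8%, and mostly smooth muscle actin in the library labelled GMTMM, where Acta2 and Actg2 held 26.9%. A factor applied to a whole library does not change these shares, whereas quantile normalization, which is not a single factor, gave 14.7%, 40.6% and 35.2%. In bulk RNA, fewer cells of a type and less RNA per cell cannot be told apart.

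The striated class held 0.00943% of actin FPKM in MICFs, 22.8% in GMTMS and 9.38% in the library labelled GMTMM. The smooth muscle class held 14.0%, 16.4% and 26.9%, and the cytoplasmic class 86.0%, 60.8% and 63.7%. Cytoplasmic actin thus remained the larger part in every library, and the 2 iCM libraries differed more in which muscle actin they held than in how much.

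**Figure D1:**
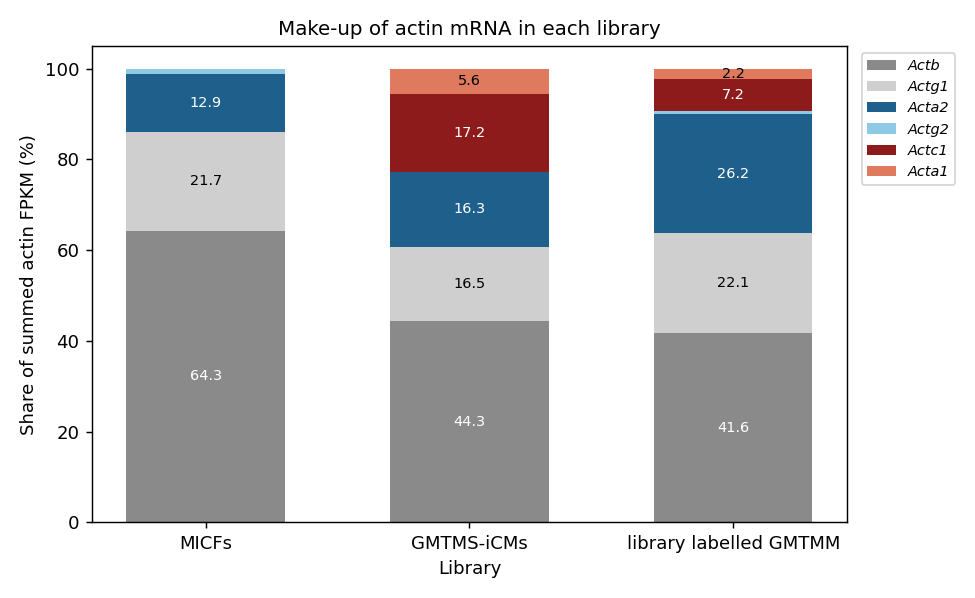
Share of the summed FPKM of the 6 actin genes (%, vertical axis) taken by each gene in the MICF, GMTMS-iCM and GMTMM-labelled libraries, 1 library per bar. Actb takes 64.3% in MICFs against 44.3% in GMTMS and 41.6% in the library labelled GMTMM, while Actc1 takes 17.2% in GMTMS and Acta2 26.2% in the library labelled GMTMM.

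Without division by gene length, the muscle actins held 9.69% of actin counts in MICFs (exact binomial interval 9.44 to 9.95), 28.8% in GMTMS (28.3 to 29.2) and 26.9% in the library labelled GMTMM (26.5 to 27.3). The order of the 3 libraries was the same, at lower shares. The 6 genes together summed to 1415 FPKM in MICFs, 1840 in GMTMS and 1700 in the library labelled GMTMM, which was 0.584%, 0.513% and 0.524% of all FPKM. Total actin was thus higher in both iCM libraries in FPKM and lower as a share of all FPKM.

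Actc1 (ENSMUSG00000068614, chr2:114047282-114053548 on GRCm38, 7 exons) had 1 count in MICFs, 4765 in GMTMS and 2313 in the library labelled GMTMM. Its FPKM were 0.0430 (interval 0.00109 to 0.239), 317.1 (308 to 326) and 122.4 (117 to 127). Cardiac actin was thus next to undetected in MICFs and stood at rank 136 of all genes by FPKM in GMTMS. Against the single MICF count, the ratio of FPKM was 7382 in GMTMS (1324 to 291641) and 2849 in the library labelled GMTMM (511 to 112589), and the width of both intervals comes from that 1 count. Between the iCM libraries Actc1 was 2.59-fold higher in GMTMS (2.46 to 2.72).

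Acta1 (ENSMUSG00000031972, chr8:123891769-123894751, 7 exons) followed the same order at a lower level. It had 2 counts in MICFs, 1467 in GMTMS and 666 in the library labelled GMTMM, or 0.0905 (0.0110 to 0.327), 102.8 (97.6 to 108) and 37.1 FPKM (34.4 to 40.0). The ratio to MICFs was 1136 (314 to 9392) in GMTMS and 410.2 (113 to 3394) in the library labelled GMTMM. Between the iCM libraries it was 2.77-fold higher in GMTMS (2.53 to 3.04), and this interval overlaps that of Actc1. The 2 striated actins kept nearly the same proportion in both iCM libraries: the FPKM of Actc1 was 3.08 times (2.91 to 3.27) that of Acta1 in GMTMS and 3.30 times (3.02 to 3.60) in the library labelled GMTMM.

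On the scale used to call differences, log2 of quantile-normalized FPKM plus 1, Actc1 was higher than in MICFs by 7.99 in GMTMS and by 6.74 in the library labelled GMTMM, and Acta1 by 6.36 and 5.02. Among the 15020 genes tested for GMTMS, the Actc1 difference was number 2 and that of Acta1 number 7 from the top. Among the 15167 tested for the library labelled GMTMM, they were number 2 and number 18. Both comparisons use the same MICF library, so a high place in both is not 2 separate observations.

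Read beside all genes, 2 of the 6 actins (Actc1 and Acta1) were higher by over 1 in GMTMS than in MICFs, where 9.29% of 15020 tested genes were, and 1 of 6 (Actg2) was lower, where 9.05% were. In the library labelled GMTMM the same 2 were higher than in MICFs, against 6.55% of 15167 genes, and 0 of 6 were lower, against 3.61%. In GMTMS against the library labelled GMTMM, Actc1 (1.25) and Acta1 (1.34) were higher, against 6.4% of 14713 genes, and Actg2 was lower, against 9.6%.

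Of 12 skeletal muscle markers, 4 had over 3 counts in each library and 8, 8 and 6 were at 0 in MICFs, GMTMS and the library labelled GMTMM. Myod1, Myog, Myf5, Pax7, Myh4 and Tnnc2 were at 0 in all 3. Their sum was 1.60 FPKM in MICFs, 18.0 in GMTMS and 9.26 in the library labelled GMTMM, led in both iCM libraries by Mylpf, a fast muscle myosin light chain with 10, 157 and 76 counts. Of the 3 markers with over 10 counts in MICFs or GMTMS, Mylpf was higher in GMTMS by over 1 (3.31), beside 9.29% of all tested genes. In the library labelled GMTMM both markers with over 10 counts were higher, beside 6.55% of all tested genes. Mylpf was higher by 2.09 and the fast troponin T gene Tnnt3 (16, 13 and 48 counts) by 1.07. Their part in the Acta1 level was not tested. The cardiomyocyte markers had over 3 counts for 4 of 10 genes in MICFs, with 5 at 0, and for 10 of 10 in both iCM libraries.

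Of the 10 cardiomyocyte markers, 9 were higher by over 1 in GMTMS than in the library labelled GMTMM, beside 6.4% of all tested genes. The natriuretic peptide gene Nppa was not (-0.27). Myh6, the α-myosin heavy chain of the heart and the promoter of the mCherry sort, was 3.44-fold higher in GMTMS (3.34 to 3.56), the troponin T gene Tnnt2 2.18-fold (2.09 to 2.27), the atrial myosin light chain Myl7 2.58-fold (2.44 to 2.74) and the α-actinin gene Actn2 3.31-fold (2.61 to 4.24). The giant sarcomere protein gene Ttn, 8.48-fold higher (7.71 to 9.35), lay highest. The 2.59-fold of Actc1 and the 2.77-fold of Acta1 thus lay among the folds of other sarcomere genes. The sort selects on this promoter, and its part in the level of the striated actins was not tested.

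Acta2 (ENSMUSG00000035783, chr19:34241090-34255336, 9 exons) was abundant everywhere. It had 4672 counts in MICFs, 4970 in GMTMS and 9262 in the library labelled GMTMM, or 182.3 (177 to 188), 300.5 (292 to 309) and 445.2 FPKM (436 to 454). Acta2 mRNA was therefore kept in both iCM libraries, and was highest in the library labelled GMTMM, where it was the second actin after Actb. Which cells of each library carried it was not tested. By FPKM it was 1.65-fold above MICFs in GMTMS (1.58 to 1.72) and 2.44-fold in the library labelled GMTMM (2.36 to 2.53), and 1.48-fold lower in GMTMS than in the library labelled GMTMM (1.43 to 1.53).

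For Acta2 the scaling of the libraries decided the comparison with MICFs. After quantile normalization the log2 difference was -0.03 for GMTMS and 0.63 for the library labelled GMTMM. Without it the differences were 0.72 and 1.28, with DESeq2 size factors 0.72 and 1.29, with edgeR's TMM 0.63 and 1.26, and with CPM, counts scaled by library total alone, 0.25 and 0.98. The library labelled GMTMM thus passed a difference of 1 under 3 of these scalings, and GMTMS under 0. In the direct comparison Acta2 was lower in GMTMS under all 9 scalings, by -0.73 to -0.57.

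Within a library, Acta2 can be set beside the other actins without a scaling factor. In MICFs Acta2 stood at 0.593 of the FPKM of Actg1 (0.573 to 0.614), in GMTMS at 0.990 (0.955 to 1.03) and in the library labelled GMTMM at 1.19 (1.15 to 1.22). Against Actc1 it was at 0.948 (0.910 to 0.986) in GMTMS and at 3.64 (3.48 to 3.81) in the library labelled GMTMM. After quantile normalization these ratios were 0.568, 0.992 and 1.18 to Actg1, and 0.956 and 3.64 to Actc1. Cardiac and smooth muscle α-actin mRNA were thus at nearly equal levels in GMTMS, while Acta2 predominated in the library labelled GMTMM.

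Actg2 (ENSMUSG00000059430, chr6:83512905-83536265, 9 exons) stood apart in GMTMS. It had 350 counts in MICFs, 17 in GMTMS and 219 in the library labelled GMTMM, or 15.6 (14.0 to 17.3), 1.18 (0.685 to 1.88) and 12.04 FPKM (10.5 to 13.7). Visceral smooth muscle actin was a minor actin in MICFs and in the library labelled GMTMM and was close to undetected in GMTMS. There it was 13.3-fold lower than in MICFs (8.18 to 23.1) and 10.2-fold lower than in the library labelled GMTMM (6.25 to 17.9). The library labelled GMTMM was 1.30-fold below MICFs (1.09 to 1.54).

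The log2 difference of Actg2 was -3.04 for GMTMS against MICFs, -0.56 for the library labelled GMTMM against MICFs and -2.47 for GMTMS against the library labelled GMTMM. Acta2 and Actg2 are both smooth muscle isoforms, yet the FPKM of Acta2 was 11.7 times (10.5 to 13.0) that of Actg2 in MICFs, 256 times (159 to 439) in GMTMS and 37.0 times (32.3 to 42.5) in the library labelled GMTMM.

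Smooth muscle markers also went separate ways. All 8 had over 3 counts in every library, and their sum was 74.2 FPKM in MICFs, 113.2 in GMTMS and 128.4 in the library labelled GMTMM. In GMTMS against MICFs, the smooth muscle myosin Myh11 (difference 1.62) and calponin Cnn1 (1.33) were higher by over 1. Smoothelin Smtn (-2.67) and the myosin kinase Mylk (-1.16) were lower. That was 2 of 8 higher, beside 9.29% of all tested genes, and 2 of 8 lower, beside 9.05%. Myh11 (1.23), Cnn1 (1.08) and desmin Des (1.55) were higher in the library labelled GMTMM, 3 of 8 beside 6.55%. None was lower there, 0 of 8 beside 3.61%. Tagln had 26, 26 and 49 counts and shares 67.9% of its exon bases with other genes, so its level is uncertain. Smtn shares 16.3%, Mylk 6.85% and Des 5.86%, and their levels are uncertain to that extent. Like Actg2, fibroblast and endothelial markers were lower by over 1 in GMTMS than in MICFs, 10 of 10 and 6 of 6, beside 9.05% of all tested genes. These calls were made after quantile normalization. The fibroblast marker with the smallest difference, Vim (-1.30), was at 410.1 FPKM in MICFs and 293.5 in GMTMS, so its call depends on the scaling. In the library labelled GMTMM 0 of 10 fibroblast markers were lower, beside 3.61%, and 1 was higher (Postn, 1.06), beside 6.55%. There, 2 of 6 endothelial markers were lower, Cdh5 (-1.15) and Kdr (-1.09), beside 3.61%. Without quantile normalization Cdh5 was at 204.3 FPKM in MICFs and 147.4 in the library labelled GMTMM, and Kdr at 9.51 and 4.29. Both calls depend on the scaling. The endothelial sum was 427.6 FPKM in MICFs, 12.1 in GMTMS and 330.8 in the library labelled GMTMM, with no marker at 0. The part of other cell types in the Acta2 and Actg2 levels was not tested.

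Actb (ENSMUSG00000029580, chr5:142903115-142906754, 6 exons) was the most abundant actin in all 3 libraries. It had 35075 counts in MICFs, 20278 in GMTMS and 22138 in the library labelled GMTMM, or 909.9 (900 to 919), 815.0 (804 to 826) and 707.4 FPKM (698 to 717). Both iCM libraries were below MICFs, by 1.12-fold (1.10 to 1.14) in GMTMS and 1.29-fold (1.26 to 1.31) in the library labelled GMTMM. The log2 differences from MICFs were -0.85 and -0.73 after quantile normalization and -0.16 and -0.36 without it, with the same sign under all 9 scalings. Between the iCM libraries the sign was not settled: GMTMS minus the library labelled GMTMM was -0.12 after quantile normalization, 0.20 without it, 0.15 with TMM and 0.04 with CPM.

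Actg1 (ENSMUSG00000062825, chr11:120345690-120348542, 6 exons) varied least in FPKM. It had 11753 counts in MICFs, 7490 in GMTMS and 11661 in the library labelled GMTMM, or 307.3 (302 to 313), 303.4 (297 to 310) and 375.6 FPKM (369 to 382). The MICF and GMTMS intervals overlap, and the library labelled GMTMM was above both. The log2 difference from MICFs was -0.84 in GMTMS and -0.42 in the library labelled GMTMM after quantile normalization, -0.02 and 0.29 without it, -0.10 and 0.26 with TMM, and -0.49 and -0.02 with CPM. Its direction in the library labelled GMTMM therefore depends on the scaling, and 5.53% of its exon bases overlap other annotated genes.

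The ratio of Actb to Actg1 was lowest in the library labelled GMTMM. The FPKM of Actb was 2.96 times (2.90 to 3.02) that of Actg1 in MICFs, 2.69 times (2.62 to 2.76) in GMTMS and 1.88 times (1.84 to 1.93) in the library labelled GMTMM. These intervals do not overlap. After quantile normalization the ratios were 2.51, 2.49 and 2.02, so that MICFs and GMTMS were then nearly equal. The shared words of Actg1 bear on this ratio, and their part in it was not tested.

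**Figure D2:**
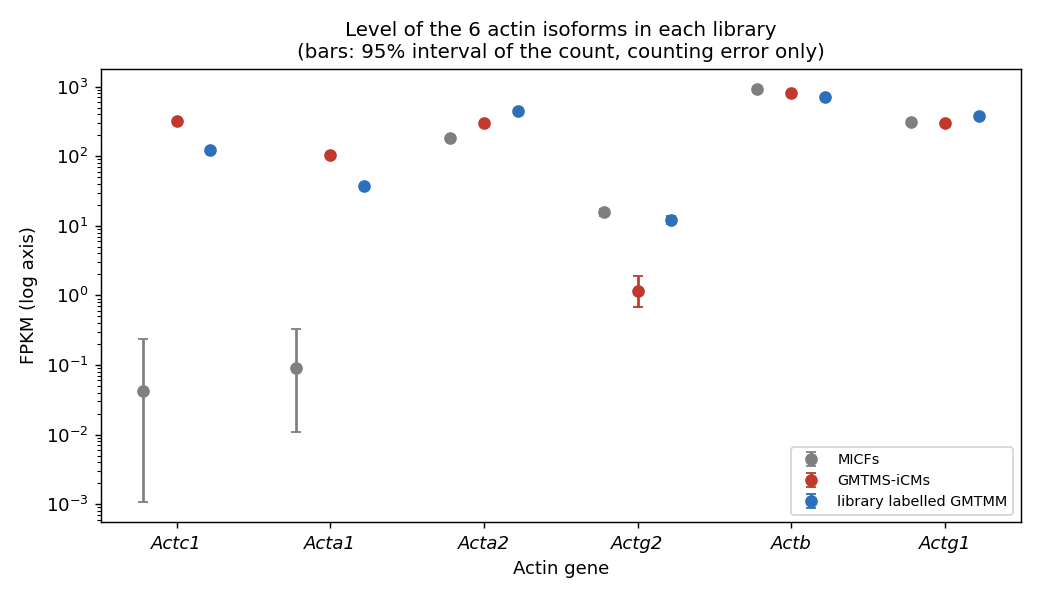
FPKM of each actin gene on a log axis in the 3 libraries, 1 point per library, with bars for the 95% interval of the count (counting error only). Actc1 and Acta1 lie below 1 FPKM in MICFs and at 37.1 or above in both iCM libraries, Actg2 is low in GMTMS alone, and Actb, Actg1 and Acta2 lie at 182.3 or above in every library.

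The order of levels differed in each library. In MICFs it was Actb, Actg1, Acta2, Actg2, and then Acta1 and Actc1, whose intervals overlap. In GMTMS it was Actb, then Actc1, Actg1 and Acta2, whose intervals overlap, and then Acta1 and Actg2. In the library labelled GMTMM it was Actb, Acta2, Actg1, Actc1, Acta1 and Actg2, with no overlap between neighbors.

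**Figure D3:**
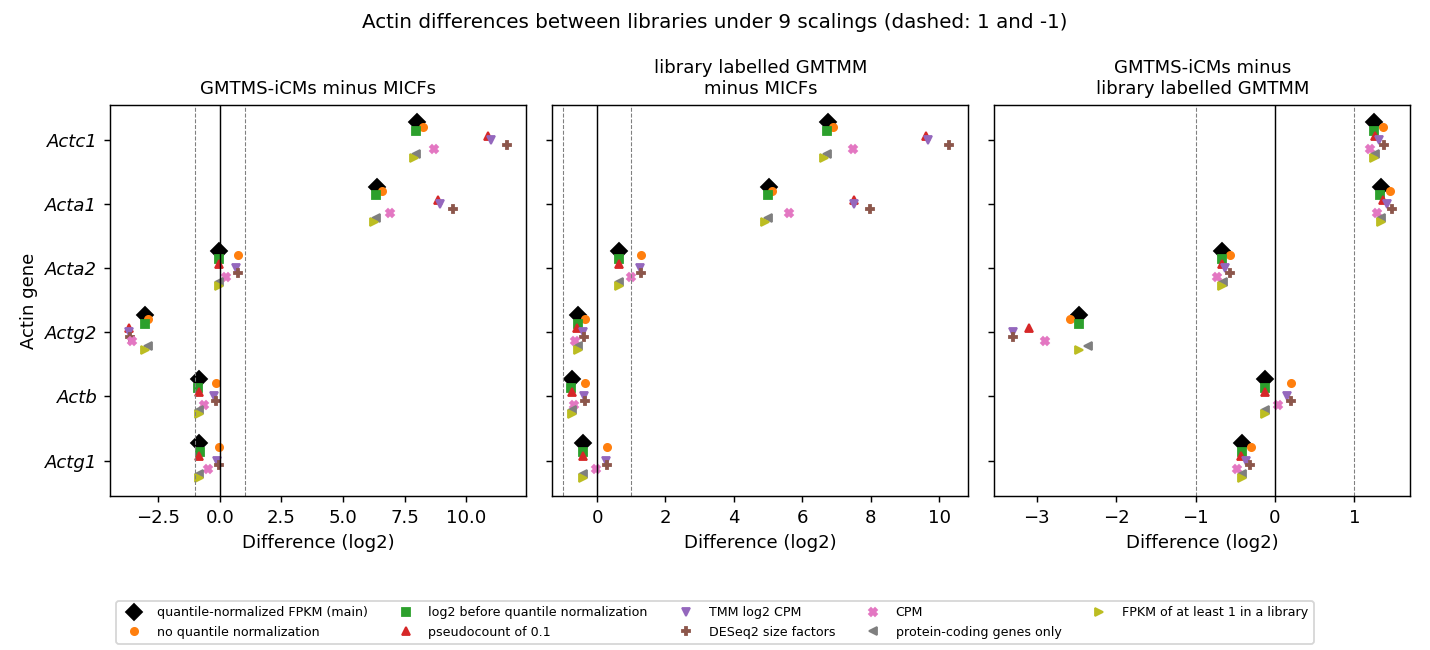
Log2 difference of each actin gene between 2 libraries (horizontal axis) under 9 scalings, 1 panel per comparison, with dashed lines at 1 and -1. Actc1 and Acta1 stay above 1 and Actg2 stays below -1 in both comparisons of GMTMS under all 9, whereas Acta2, Actb and Actg1 cross 0 or 1 with the scaling in 1 or more panels.

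Serum response factor (SRF) is the DNA-binding partner of Myocd and binds the CArG box, a short element in the promoters of many muscle and cytoskeletal genes. Myocd was among the delivered factors, so the promoters were read for this box. Promoters from RefSeq (GRCm38.p6) were at hand for 4 of the 6 genes: Actc1 (chr2:114052876-114053125), Acta1 (chr8:123894776-123895025), Acta2 (chr19:34255374-34255623) and Actg1 (chr11:120348496-120348745), all on the minus strand. The 250 bases before the RefSeq transcription start are shown. This start is not the edge of the gene spans given above. The Actc1 stretch lies inside its gene span, and the Actg1 stretch lies partly inside its own. Distances below are counted from the RefSeq start. Capitals mark a CArG box of 10 bases on either strand, or the same box with 1 C or G in its core of 6 bases.
Actc1: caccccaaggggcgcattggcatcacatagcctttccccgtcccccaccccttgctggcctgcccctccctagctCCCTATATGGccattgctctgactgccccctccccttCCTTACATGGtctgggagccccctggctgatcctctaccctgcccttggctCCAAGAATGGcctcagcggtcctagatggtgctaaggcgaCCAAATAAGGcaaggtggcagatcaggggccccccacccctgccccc
Acta1: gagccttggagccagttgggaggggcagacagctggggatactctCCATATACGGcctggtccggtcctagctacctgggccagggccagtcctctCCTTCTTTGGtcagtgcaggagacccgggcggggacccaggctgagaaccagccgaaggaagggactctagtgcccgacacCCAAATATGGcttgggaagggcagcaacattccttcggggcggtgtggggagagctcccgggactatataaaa
Acta2: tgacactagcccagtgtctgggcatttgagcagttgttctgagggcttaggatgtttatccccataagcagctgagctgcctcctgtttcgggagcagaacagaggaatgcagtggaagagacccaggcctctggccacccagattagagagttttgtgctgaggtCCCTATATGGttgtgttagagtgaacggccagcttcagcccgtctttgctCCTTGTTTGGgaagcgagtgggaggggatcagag
Actg1: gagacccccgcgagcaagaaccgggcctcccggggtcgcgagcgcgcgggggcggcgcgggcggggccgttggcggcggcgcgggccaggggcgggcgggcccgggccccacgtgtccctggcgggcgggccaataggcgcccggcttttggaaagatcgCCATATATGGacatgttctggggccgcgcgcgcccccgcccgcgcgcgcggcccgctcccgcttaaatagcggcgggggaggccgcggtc
A full CArG box lay in Actc1 (CCAAATAAGG, 47 to 38 bases before the start), Acta1 (CCAAATATGG, 73 to 64 bases) and Actg1 (CCATATATGG, 90 to 81 bases). In these 250 bases Acta2 had none, but had CCCTATATGG 84 to 75 bases and CCTTGTTTGG 34 to 25 bases before the start, each with 1 C or G in the core. Of 32851 promoters of this length, 482 (1.47%) held a full box and 2823 (8.59%) a box with up to 1 C or G in the core. The match of letters does not show binding, and it was present both in the actins that were far higher in iCMs and in Actg1.

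**Figure D4:**
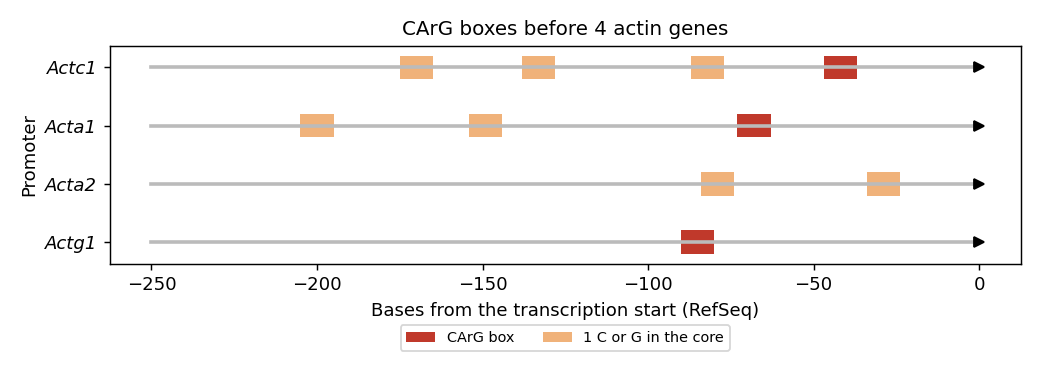
Places of CArG boxes, full or with 1 C or G in the core, in the 250 bases before the RefSeq transcription start (arrowhead, position 0) of 4 actin genes. Full boxes sit within 90 bases of the start in Actc1, Acta1 and Actg1, and Acta2 has 2 boxes of the looser kind.

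Myocd itself had 8 counts in MICFs, 574 in GMTMS and 342 in the library labelled GMTMM, any virus transcripts that map to the gene included. Srf had 743, 391 and 626 counts, and its log2 difference from MICFs was -0.54 in GMTMS and -0.23 in the library labelled GMTMM. Of the 9 genes listed as SRF and its cofactors, 2 were higher by over 1 in GMTMS than in MICFs, beside 9.29% of all tested genes. These were Myocd (3.27) and the cardiac factor Tbx5 (4.20). Fhl2, a LIM protein, was lower (-1.64), 1 of 9 beside 9.05%. In the library labelled GMTMM 3 were higher (Myocd 2.32, Tbx5 3.67 and Gata4 1.18), beside 6.55%, and 0 lower, beside 3.61%. Those higher were all delivered factors. The other SRF coactivators, Mrtfa (0.77) and Mrtfb (0.82), did not pass 1 in GMTMS.

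Genes that handle actin monomers and filaments, SRF and its cofactors and other actin family genes were described by 8 lists of 79 genes. In GMTMS against MICFs, 10 of the 76 with over 10 counts were higher by over 1 (13.2%, beside 9.29% of all tested genes) and 8 lower (10.5%, beside 9.05%). The median difference was -0.09, beside -0.08 over all tested genes. In the library labelled GMTMM 7 of 75 were higher (9.33%, beside 6.55%) and 1 lower (1.33%, beside 3.61%), with a median of -0.11, beside -0.09. The 10 higher genes in GMTMS include the delivered factors Myocd and Tbx5, and the 7 in the library labelled GMTMM include Myocd, Tbx5 and Gata4. These were added by virus, so their part of both higher shares is not a result about actin genes. List members went both ways in GMTMS, so the median alone says little.

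Of the 12 genes of monomer binding and turnover, 1 was higher (8.33%, near the 9.29% of all genes) and 2 were lower (16.7%, beside 9.05%) in GMTMS than in MICFs. Cap2, the striated muscle form of a cyclase-associated protein that recycles actin monomers, had 32, 217 and 188 counts in MICFs, GMTMS and the library labelled GMTMM, a 10.5-fold (7.23 to 15.7) and 7.24-fold (4.96 to 10.9) higher FPKM than in MICFs. Its ubiquitous partner Cap1 did not pass 1, with -0.47 and -0.79. Gelsolin (Gsn), which severs filaments, had 18502, 3048 and 18797 counts and was 3.92-fold lower in GMTMS than in MICFs (3.77 to 4.07). Tmsb10, a thymosin that sequesters monomers, was 3.76-fold lower (3.42 to 4.15). Both differed from MICFs by less than 1 in the library labelled GMTMM (-0.31 and -0.13), where Twf2, a twinfilin, was lower instead (-1.33).

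Of the 10 crosslinkers, 3 were higher in GMTMS than in MICFs, beside 9.29% of all genes, and 4 lower, beside 9.05%. The sarcomeric α-actinin Actn2, an anchor of thin filaments at the Z-disc, had 0, 253 and 96 counts, which is at least 131-fold higher than MICFs in GMTMS and at least 39.4-fold in the library labelled GMTMM, against a floor of 3 counts in the MICF library. Actn3 (1.83) and the muscle filamin Flnc (1.19) were also higher in GMTMS. Fascin (Fscn1), which bundles filaments in cell protrusions, had 5733, 149 and 4538 counts and was 24.8-fold lower in GMTMS than in MICFs (21.1 to 29.4). The filamin Flna (-1.34) and the plastin Pls3 (-1.67) were lower as well. Without quantile normalization Flna was at 106.3 FPKM in MICFs and 64.8 in GMTMS, so its call depends on the scaling. Actn2 (1.64) and Actn3 (1.52) were higher in the library labelled GMTMM too, 2 of 10 beside 6.55%. There 0 of 10 were lower, beside 3.61%. Lcp1, a plastin of white blood cells, had 8838, 13420 and 6087 counts and was 2.77-fold higher in GMTMS than in the library labelled GMTMM (2.69 to 2.86). The macrophage markers also summed higher in GMTMS. Their part in the Lcp1 level was not tested.

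Thin filament length regulators and formins held a few muscle genes. Tmod1, the tropomodulin that caps thin filaments in the heart, had 63, 207 and 89 counts and was 5.09-fold higher in GMTMS than in MICFs (3.82 to 6.86). Lmod2, the leiomodin of heart muscle, had 0, 28 and 18 counts, at least 14.5-fold higher in GMTMS and at least 7.39-fold in the library labelled GMTMM. These were the 2 of 10 capping genes higher by over 1 in GMTMS, beside 9.29% of all genes. In the library labelled GMTMM 0 of 9 were, beside 6.55%. Of the 10 formins, Fhod3, which assembles cardiac thin filaments, was 22.9-fold higher in GMTMS (15.0 to 36.6) and 11.4-fold in the library labelled GMTMM (7.40 to 18.4). Diaph3 (1.05) was also higher and Fmnl3 (-1.57) lower in GMTMS. That was 2 of 10 formins higher, beside 9.29% of all genes, and 1 lower, beside 9.05%. In the library labelled GMTMM 1 formin was higher, beside 6.55%, and 0 were lower, beside 3.61%.

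The remaining lists showed no member past 1 in any comparison, beside 3.61% to 9.6% of all tested genes in each direction. All 8 Arp2/3 subunits, which branch filaments, lay between -0.60 and 0.20 of MICFs in both iCM libraries, and all 10 genes of actin folding and modification, among them the chaperonin subunits that fold actin and the actin methyltransferase Setd3 (0.03 and -0.06), between -0.46 and 0.27. Of the other actin family genes, Actbl2 and Actl6b had 0 counts in every library, and 7 of 9 were measured with differences from MICFs of -0.78 to 0.07.

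**Figure D5:**
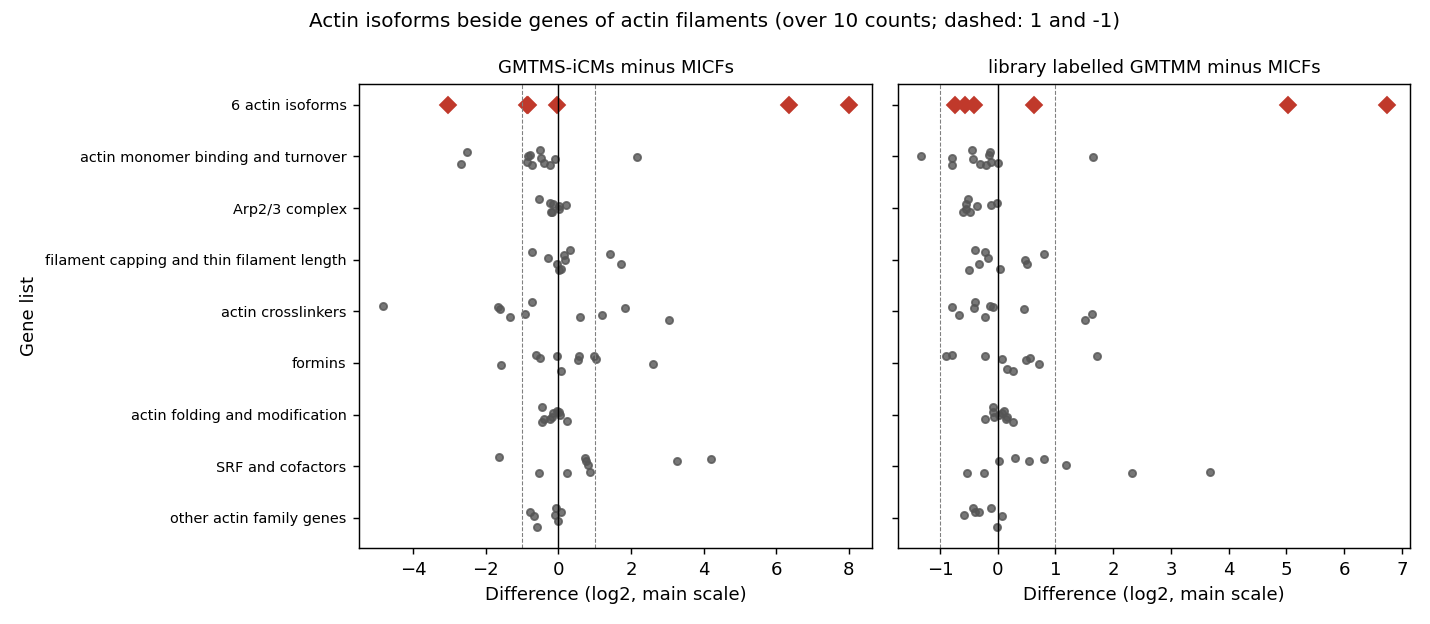
Log2 difference from MICFs on the quantile-normalized scale (horizontal axis) for GMTMS and for the library labelled GMTMM, with 1 point per gene with over 10 counts, the 6 actins as diamonds, and dashed lines at 1 and -1. Most genes of the 8 lists lie between the dashed lines, and Actc1 and Acta1 lie to the right of every list gene in both panels.

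In GMTMS against the library labelled GMTMM, 3 of 76 list genes were higher (3.95%, beside 6.4% of all genes) and 8 lower (10.5%, near the 9.6% of all genes), with a median of -0.01. The higher ones were Actn2 (1.40), Lcp1 (1.39) and Tmod1 (1.23). The lower ones included Fscn1 (-4.17), Gsn (-2.38), Tmsb10 (-2.37), Pls3 (-1.54), the formins Daam1 (-1.20) and Daam2 (-1.16), and Fhl2 (-1.12).

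Each actin was also matched with the 3 genes of 10708 with over 100 counts whose 2 differences from MICFs lay closest to its own. With 3 libraries this rests on 2 numbers per gene. For Actc1 they were Cxcl10 (distance 0.512), Il1rn (0.812) and Myh6 (0.907), and for Acta1 they were Acod1 (0.200), Tnnt2 (0.226) and Ccl5 (0.464). The striated actins thus had beside them both sarcomere genes and genes of inflammatory cells, the chemokines Cxcl10 and Ccl5, the interleukin 1 receptor antagonist Il1rn and the itaconate enzyme Acod1. Acta2 was nearest to Gmds (0.0172), Ehbp1 (0.0268) and Ube2o (0.0385), and Actg2 to Atoh8 (0.0433), Tmem47 (0.101) and Heg1 (0.107). Actb lay nearest to Akt1 (0.00468), Ccdc8 (0.0106) and Cdc42bpb (0.0155), and Actg1 to Rps27a (0.0175), Ccs (0.0254) and Cnksr3 (0.0294).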

How the data were processed

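RNA-seq (paired reads of 150 bases) was compared between 3 mouse libraries, 1 per condition. The authors deposited raw counts per gene and FPKM per gene. HISAT2 2.0.5 and mm9 are named in the submitters' processing notes, but the file's coordinates are those of GRCm38. The counting tool, strand setting and handling of multiple matches are not given in the sources used here. The deposited FPKM use a library size of 14389264 for MICFs, 9287868 for GMTMS and 11680913 for GMTMM, which equals the mean (geometric) library total multiplied by the size factor from DESeq2. The MICF column carries the abbreviation cMF and was assigned because the other columns name the cocktails, and 0 value columns were left unassigned.

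FPKM were quantile-normalized over the 3 libraries (ties averaged) and taken as log2 (FPKM + 1), as in the study's methods, and a difference over 1 in a gene with over 10 counts in the higher library was called. No test was possible. A fold divides the deposited FPKM of 2 libraries, with an exact 95% interval (Clopper-Pearson) from the 2 counts, where 1 to 3 counts are kept as counted and 0 is replaced by a floor of 3 counts per library. The ratios between actins were repeated on quantile-normalized FPKM, chosen after seeing the data. Shares are FPKM over the summed FPKM of the 6 actins. The named genes were the 6 actins, members of 8 actin lists and 6 marker lists, the delivered factors and the 3 nearest genes to each actin by Euclidean distance. The values of 1 list gene are not reported here. The members and lists were chosen with earlier results of these data known. Alternatives were another scaling (no quantile normalization, TMM, DESeq2 size factors, CPM), log2 before normalization, a pseudocount of 0.1, protein-coding genes only, FPKM of at least 1, no count filter and a difference over 2. Coding sequences from GENCODE M21 were aligned with MAFFT, in place of protein identity, and RefSeq promoters were searched for CArG boxes. The scripts were tested on simulated data. The tools were R 4.3.3 with edgeR 4.0.16 (TMM only) and DESeq2 1.42.0 (size factors only), and Python 3.11.15 with pandas 2.3.3, numpy 2.4.6, Biopython 1.88 and SciPy 1.17.1.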

Additional observations from a re-analysis of the deposited data

How the results depend on the processing

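No paired analysis was possible because there is only 1 library for each condition, and no replicate could be left out. Actc1 and Acta1 were higher by over 1 in all 3 comparisons, and Actg2 lower by over 1 in both comparisons of GMTMS, under all 8 alternative scalings and filters. Against MICFs, Actc1 ranged from 7.89 to 11.68 in GMTMS and from 6.64 to 10.30 in the library labelled GMTMM, and Acta1 from 6.26 to 9.45 and from 4.92 to 7.98. Of 144 recomputed actin differences, 42 moved by more than the counting interval and 11 changed sign, all of them differences of Acta2 (GMTMS minus MICFs), Actb (GMTMS minus the library labelled GMTMM) or Actg1 (library labelled GMTMM minus MICFs). CPM moved the median difference of all tested genes to -0.46 (GMTMS minus MICFs), -0.27 (library labelled GMTMM minus MICFs) and -0.13 (GMTMS minus the library labelled GMTMM), from -0.08, -0.09 and 0.06.

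The muscle actin share of 14.0%, 39.2% and 36.3% (MICFs, GMTMS, library labelled GMTMM) was 9.69%, 28.8% and 26.9% from counts and 14.7%, 40.6% and 35.2% from quantile-normalized FPKM. In GMTMS against MICFs, 1395 genes were higher and 1359 lower. These became 2131 and 2631 with a pseudocount of 0.1, 2140 and 3163 with TMM, 2346 and 3022 with DESeq2 size factors, and 439 and 457 past a difference of 2, and 3772 were lower with CPM. In the library labelled GMTMM against MICFs, the 993 higher and 548 lower became 1812 and 1617, 1998 and 1661, 2087 and 1651, and 310 and 42 under the same 4 alternatives, and 1865 were lower with CPM. In GMTMS against the library labelled GMTMM, the 942 higher and 1412 lower became 1769 and 2348, 1566 and 2781, 1759 and 2733, and 18 and 495, and 2441 were lower with CPM. Of the 8 actin lists, 15 genes in place of 8 were lower with CPM in GMTMS against MICFs, 3 in place of 1 in the library labelled GMTMM against MICFs, and 13 in place of 8 in GMTMS against the library labelled GMTMM. There, the 3 higher became 7 with a pseudocount of 0.1, 5 with TMM and 6 with DESeq2 size factors. The cause was not tested. At these depths a count of 1 to 3, as for Actc1 and Acta1 in MICFs, makes the counting interval of the fold wide.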
